A study of Mus musculus with 8 samples.

Results

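The creatine kinases, the genes that supply creatine to them and 2 adenylate kinases were followed across hearts that lacked the estrogen-related receptors ERRα, ERRγ or both. These 9 genes were taken from a list of names and matched by gene identifier to mouse symbols, and all 9 had reads, out of 18656 genes with a read in any library. They are Ckmt2, Ckm, Ckb and Ckmt1 (creatine kinases), Gatm and Gamt (creatine synthesis), Slc6a8 (creatine uptake), and Ak1 and Ak3 (adenylate kinases). Heart RNA of C57BL/6 mice at postnatal day 16 was sequenced in 8 libraries, 2 for each of 4 genotypes, and each library held RNA pooled from several mice, a number that the series description gives as 2 to 3 and the methods of the study as 3. The genotypes are αHetγWT (ERRα heterozygous, ERRγ wild type), αHetγKO (ERRα heterozygous, ERRγ knockout), αKOγWT (ERRα knockout, ERRγ wild type) and αKOγKO (both knocked out). ERRα was lost in the whole body, whereas ERRγ was removed by a Cre recombinase under the Myh6 promoter, which is active in cardiomyocytes, so cells of other types keep ERRγ. No genotype carried 2 intact copies of ERRα, and the αHetγWT reference is therefore a heterozygote. The labels do not say which γWT hearts carried the Cre. The labels name the libraries as separate samples and do not say how the pools were formed. The methods of the study describe 2 independent samples per genotype, each with RNA of 3 littermate hearts pooled in equal amounts. The p-values therefore measure the spread between pools.

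Heart muscle spends ATP at the myofibrils and ion pumps and makes most of it in mitochondria. Creatine kinases move the high-energy phosphate between ATP and creatine. The mitochondrial isoforms, in the space between the mitochondrial membranes, load creatine with phosphate from newly made ATP, and the cytosolic isoforms use phosphocreatine to rebuild ATP where it is spent. Cardiomyocytes make little creatine and take it up from blood through a transporter. Adenylate kinases pass phosphate among ATP, ADP and AMP and so link ATP use to AMP, the ligand of AMP-activated protein kinase. ERRα and ERRγ are nuclear receptors known to bind genes of mitochondrial energy metabolism at the sequence TNAAGGTCA.

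Library depth, in units of 1000000 assigned reads, ranged from 28.2 to 36.8. Esrra, which encodes ERRα, had 2962 to 3483 reads in the αHet libraries and 84 to 136 in the αKO libraries, as labelled. Esrrg, which encodes ERRγ, had 1055 to 1486 reads in the 6 libraries of the other genotypes and 3012 and 3461 in αKOγKO, and a count over the whole gene cannot show a deleted exon, so it does not check the γKO labels. The αKOγKO libraries stood apart from each other in 2 ways, with Xist at 7142 reads in replicate 1 and 6 to 14 reads in all others, and Fos at 15676 reads in replicate 2 and 105 to 484 in all others. Cardiomyocyte markers were present throughout (10 of 10 genes with reads in every library), with summed RPKM of 48519 to 54777 in the other genotypes and of 37131 and 43628 in αKOγKO. In the same order, fibroblast markers summed to 1680 to 1983 and to 3251 and 2468, endothelial markers to 553 to 642 and to 464 and 485, smooth muscle and pericyte markers to 800 to 1449 and to 2974 and 2351, macrophage markers to 118 to 174 and to 247 and 146, and neuron and glia markers to 13.4 to 23.0 and to 25.4 and 31.4. Some of these sums hold genes that moved in opposite directions in αKOγKO against αHetγWT, where 21.5% of all genes were lower and 20.7% higher. Of 10 cardiomyocyte markers, 5 passed as lower by edgeR, with log2 fold changes from -1.63 for Tnni3 to -0.44 for Myh6. Actn2 (0.60) and Nkx2-5 (0.65) passed as higher. Of 10 smooth muscle and pericyte markers, 5 passed as higher, Acta2 the most (2.12), and 3 as lower (Kcnj8 -0.86, Rgs5 -0.75, Myh11 -0.67). Skeletal muscle, like heart, makes Ckm, Ckmt2 and Ak1, and its markers (8 of 10 with reads) summed to 14.3 and 13.8 RPKM for αHetγWT, 24.8 and 16.8 for αHetγKO, 19.98 and 29.1 for αKOγWT and 25.03 and 28.7 for αKOγKO. Of the 5 that could be tested, Myh8 (log2 fold change 3.39 ± 0.55, edgeR adjusted p = 0.00139) and Tnnt3 (2.94 ± 0.51, adjusted p = 0.00196) were higher in αKOγKO than in αHetγWT and none was lower. Red blood cell markers summed to 982 to 3267 in the other genotypes and to 1248 and 1147 in αKOγKO. In RNA from whole hearts, fewer cells of a type and less RNA per cell cannot be told apart, and the part of these differences in the results below was not tested.

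The promoters of the genes that fell most, Ckmt2, Ak1 and Ckm, are shown because ERRα and ERRγ act on DNA sequence. RefSeq (GRCm38.p6) gave start windows of 300 bases, 250 before the start and the rest after it, for 8 of the 9 genes, 12 windows in all. Each was searched on both strands for TNAAGGTCA and for its shorter core AAGGTCA, which lies inside the longer motif. The longer motif was in 0 of the 12 windows, against 1.28% of all 32851 windows in the reference, and the core was in 2 of the 12, against 4.72%. The first match was at the third of 4 starts of Ak1, from base -90 to -84 counted back from the start, and the second was at the first of 2 starts of Ckmt1, on the reverse strand from base -179 to -173. These letter matches are not evidence of binding, and an element outside the windows would not be seen. The 250 bases before each start are given 5′ to 3′ on the strand of the gene, with a core match in capitals. Ckmt2 (chr13:91876886-91877135, minus strand), Ckm (chr7:19410844-19411093, plus strand), the third Ak1 start (chr2:32628140-32628389, plus strand) and the first Ckmt1 start (chr2:121357526-121357775, plus strand) follow.
Ckmt2: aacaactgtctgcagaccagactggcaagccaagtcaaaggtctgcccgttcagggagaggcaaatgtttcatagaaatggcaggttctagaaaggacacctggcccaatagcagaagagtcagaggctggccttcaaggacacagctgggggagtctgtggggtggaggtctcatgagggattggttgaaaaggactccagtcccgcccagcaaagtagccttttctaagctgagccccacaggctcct
Ckm: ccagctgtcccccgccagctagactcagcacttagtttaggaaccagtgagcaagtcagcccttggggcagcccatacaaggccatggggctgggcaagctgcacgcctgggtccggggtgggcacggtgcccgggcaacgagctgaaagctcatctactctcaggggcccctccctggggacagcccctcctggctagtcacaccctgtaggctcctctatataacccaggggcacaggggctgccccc
Ak1: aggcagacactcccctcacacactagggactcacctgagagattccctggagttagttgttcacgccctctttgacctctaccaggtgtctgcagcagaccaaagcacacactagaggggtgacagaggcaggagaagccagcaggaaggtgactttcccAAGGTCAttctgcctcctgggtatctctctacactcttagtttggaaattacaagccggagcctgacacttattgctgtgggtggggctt
Ckmt1: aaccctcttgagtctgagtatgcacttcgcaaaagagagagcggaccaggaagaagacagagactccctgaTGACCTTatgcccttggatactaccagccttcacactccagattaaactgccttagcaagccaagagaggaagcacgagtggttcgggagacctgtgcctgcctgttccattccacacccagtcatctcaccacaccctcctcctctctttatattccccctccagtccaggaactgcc

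Ckmt2, the sarcomeric mitochondrial creatine kinase of heart and skeletal muscle, showed the largest difference of the 9 genes. Its gene lies at chr13:91853386-91876923 (minus strand, 1486 exonic bases, GRCm38.p6). Levels are given as RPKM, reads divided by the length of the gene and by the depth of the library, and can be compared between genes. RPKM is not corrected for the composition of a library, whereas the fold changes are, with edgeR's TMM factors of 0.966 to 0.997 in the other genotypes and 1.05 and 1.08 in αKOγKO. It was at 1363 and 1281 RPKM for αHetγWT, 1401 and 1325 for αHetγKO, 998 and 841 for αKOγWT and 215 and 143 for αKOγKO. The αKOγKO libraries were far below all others, and the αKOγWT libraries lay between them and the overlapping αHetγWT and αHetγKO libraries. In αKOγKO the level fell by 3.00 ± 0.19 on the log2 scale against αHetγWT (SE, n = 2 libraries each, edgeR adjusted p = 6.24e-06), a level 8.01-fold lower. It also fell against αKOγWT (log2 fold change -2.48 ± 0.18, adjusted p = 2.02e-05) and against αHetγKO (-3.03 ± 0.19, adjusted p = 6.8e-06). With reads scaled to the 10 cardiomyocyte markers instead, which raises the median log2 fold change of all genes from 0.01 to 0.41, Ckmt2 was at -2.58 (adjusted p = 3.98e-05). The marker scale, here and below, rests on genes that themselves differed in αKOγKO in both directions, so it is not a measure of cardiomyocyte number.

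Ckm, the muscle-type cytosolic creatine kinase, was the most abundant of the 9 genes and ranked 20th by mean RPKM among all 18656 genes, with Ckmt2 at rank 57. The gene lies at chr7:19411094-19421583 (plus strand). Its RPKM was 1912 and 1928 for αHetγWT, 2025 and 1997 for αHetγKO, 1802 and 1949 for αKOγWT and 1252 and 1279 for αKOγKO. Both αKOγKO libraries lay below the other 6, and the αKOγWT and αHetγWT libraries overlapped. Ckm fell in αKOγKO against αHetγWT (log2 fold change -0.73 ± 0.07, adjusted p = 0.000113), against αKOγWT (-0.70 ± 0.07, adjusted p = 0.00018) and against αHetγKO (-0.78 ± 0.07, adjusted p = 8.85e-05). Scaled to the cardiomyocyte markers its log2 fold change against αHetγWT was -0.32 (adjusted p = 0.0169). Per 1000 RPKM of summed cardiomyocyte markers, Ckm was at 35.6 to 41.2 RPKM in the other genotypes and at 33.7 and 29.3 in αKOγKO.

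Ckb, the brain-type cytosolic isoform, is made in many cell types. It stood at 69.1 and 71.9 RPKM for αHetγWT, 80.0 and 79.3 for αHetγKO, 79.6 and 77.7 for αKOγWT and 90.5 and 78.6 for αKOγKO. Replicate 1 of αKOγKO was the highest library and replicate 2 lay within the range of αHetγKO and αKOγWT. The log2 fold change in αKOγKO against αHetγWT was 0.14 ± 0.09 (adjusted p = 0.225) and did not pass. It passed without αKOγKO replicate 2 (0.24, adjusted p = 0.023), by limma run on log2 values of RPKM + 1 (0.26, adjusted p = 0.0249), and when scaled to the cardiomyocyte markers (0.55, adjusted p = 0.00445). The endothelial, fibroblast and smooth muscle marker sums given above moved in αKOγKO too, and their part in the value of Ckb was not tested.

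Ckmt1, the ubiquitous mitochondrial isoform, was close to the limit of what these libraries could count, with 14 to 47 reads. Its RPKM was 0.346 and 0.289 for αHetγWT, 0.313 and 0.318 for αHetγKO, 0.522 and 0.964 for αKOγWT and 0.325 and 0.549 for αKOγKO. In αKOγKO hearts, in which the level of the sarcomeric mitochondrial isoform was 179 ± 51 RPKM (SD, n = 2), the ubiquitous one was at 0.437 ± 0.158 RPKM. The difference between αKOγKO and αHetγWT was 0.33 ± 0.48 on the log2 scale (adjusted p = 0.61), and it turned to -0.084 without αKOγKO replicate 2. A difference in Ckmt1 was not detectable at this depth.

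**Figure D1:**
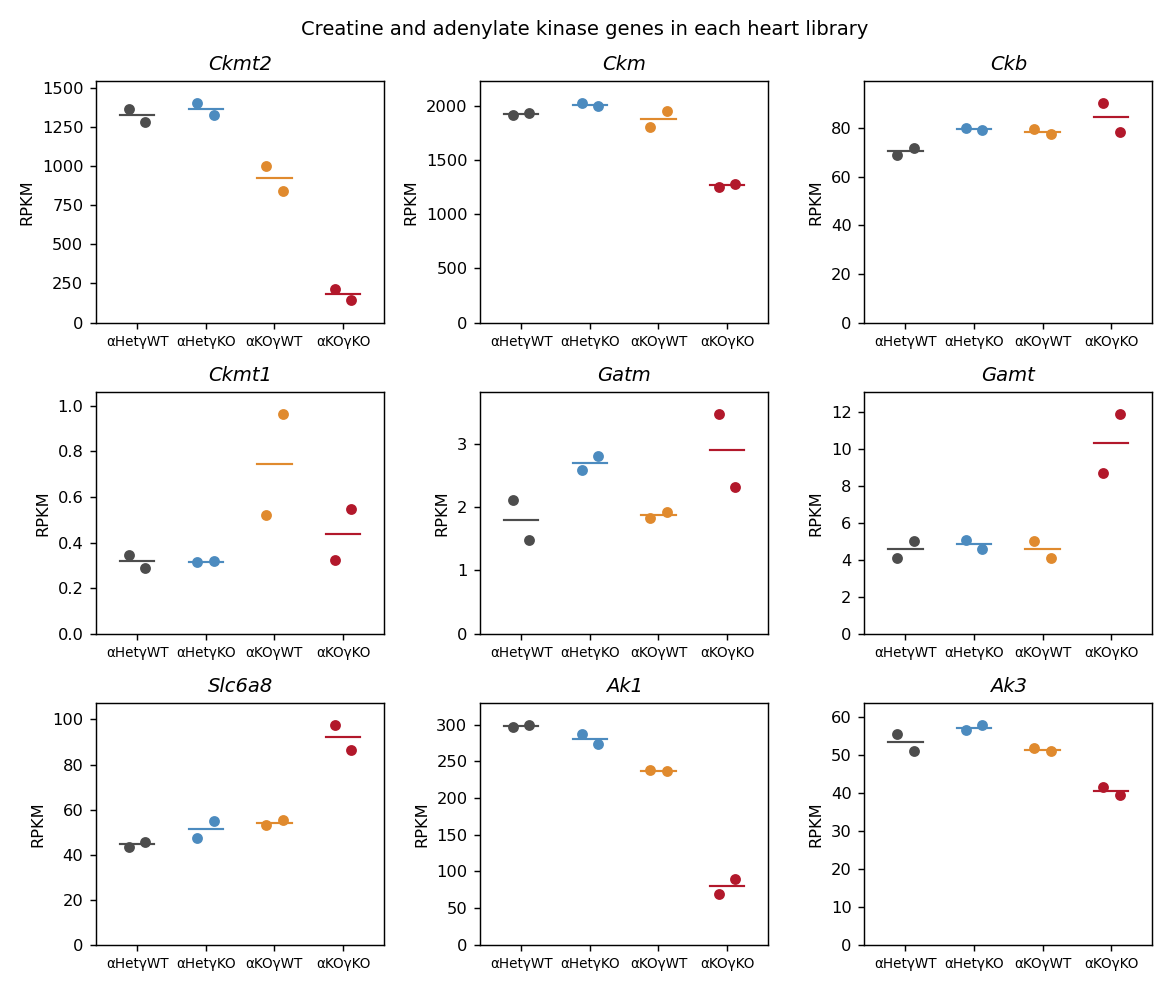
RPKM of each of the 9 genes in the 8 heart libraries, with 1 point per library, a line at the mean of the 2 libraries of a genotype and linear axes that start at 0. Ckmt2, Ckm, Ak1 and Ak3 are lower, and Gamt and Slc6a8 higher, in both αKOγKO libraries than in the other 6, while the αKOγKO points of Ckb, Ckmt1 and Gatm overlap other genotypes.

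As a share of the summed RPKM of the 4 isoforms, Ckmt2 made up 40.8% and 39.0% for αHetγWT, 39.96% and 38.9% for αHetγKO, 34.7% and 29.3% for αKOγWT and 13.8% and 9.55% for αKOγKO. The order ran from the αHet genotypes, which overlapped, through αKOγWT to αKOγKO, with no overlap between these last 2 or between αKOγWT and the αHet libraries. The share of Ckm was 58.0% ± 1.1 in αHetγWT (SD, n = 2), 58.2% ± 0.7 in αHetγKO, 65.2% ± 3.8 in αKOγWT and 82.8% ± 3.4 in αKOγKO. Ckb held 2.13% ± 0.09, 2.31% ± 0.04, 2.74% ± 0.04 and 5.52% ± 0.40 in the same order. The ratio of Ckmt2 to Ckm was 0.689 ± 0.034 in αHetγWT and 0.142 ± 0.042 in αKOγKO, and a ratio within a library does not depend on how libraries are scaled. The 4 isoforms together summed to 3344 and 3282 RPKM for αHetγWT, 3507 and 3401 for αHetγKO, 2880 and 2869 for αKOγWT and 1559 and 1502 for αKOγKO. These shares and ratios are a description, and no test was run on them.

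**Figure D2:**
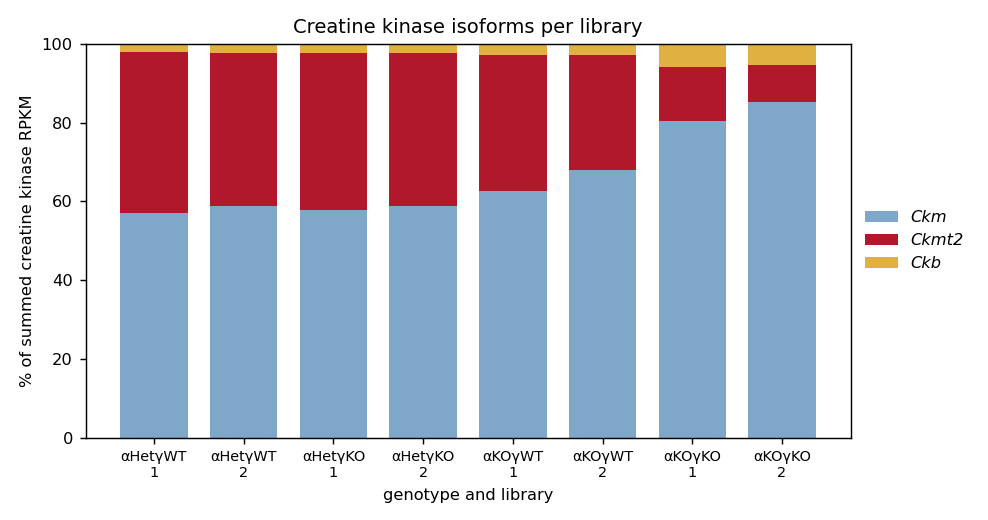
Share of the summed creatine kinase RPKM held by Ckm, Ckmt2 and Ckb in each library, in percent, with Ckmt1 too small to be drawn. The Ckmt2 segment is 38.9% to 40.8% in the αHet libraries, 29.3% and 34.7% in αKOγWT and 9.55% and 13.8% in αKOγKO.

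Of the 3 genes that supply creatine, Slc6a8 and Gamt rose in αKOγKO hearts. Slc6a8, the sodium- and chloride-dependent creatine transporter of the plasma membrane, lies on the X chromosome (chrX:73673133-73682502). Its RPKM was 43.5 and 45.7 for αHetγWT, 47.4 and 55.0 for αHetγKO, 53.0 and 55.3 for αKOγWT and 97.4 and 86.6 for αKOγKO. The 2 αKOγKO libraries were above all others, and αHetγKO and αKOγWT overlapped. The log2 fold change against αHetγWT was 0.92 ± 0.09 (adjusted p = 0.00011), against αKOγWT 0.64 ± 0.09 (adjusted p = 0.00105) and against αHetγKO 0.74 ± 0.09 (adjusted p = 0.000427). The level was 86.6 RPKM in αKOγKO replicate 2, where Xist had 6 reads, and without replicate 1, which had the high Xist count, the log2 fold change against αHetγWT was 0.82 (adjusted p = 7.28e-05).

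Gamt methylates guanidinoacetate to creatine, the last step of its synthesis, and Gatm makes guanidinoacetate from arginine and glycine. Gamt was at 4.11 and 5.02 RPKM for αHetγWT, 5.10 and 4.59 for αHetγKO, 5.05 and 4.11 for αKOγWT and 8.72 and 11.9 for αKOγKO. Only the αKOγKO libraries stood above the common range of the other 3 genotypes, from 115 to 152 reads there to 308 and 419 reads. The rise against αHetγWT was 1.05 ± 0.21 on the log2 scale (adjusted p = 0.00382), and against αKOγWT and αHetγKO it was 1.04 ± 0.21 (adjusted p = 0.00492) and 0.98 ± 0.21 (adjusted p = 0.00596). The last of these no longer passed without αHetγKO replicate 2 (0.89, adjusted p = 0.0547). Gatm was at 2.11 and 1.49 RPKM for αHetγWT, 2.59 and 2.82 for αHetγKO, 1.83 and 1.92 for αKOγWT and 3.47 and 2.32 for αKOγKO. The αKOγKO and αHetγKO libraries overlapped, and the log2 fold change of αKOγKO against αHetγWT was 0.57 ± 0.24 (adjusted p = 0.0931). Without αKOγKO replicate 2 it was 0.83 (adjusted p = 0.013), by limma run on log2 values of RPKM + 1 it was 0.47 (adjusted p = 0.0488), and scaled to the cardiomyocyte markers 0.98 (adjusted p = 0.0157). Against αKOγWT it was 0.50 ± 0.24 (adjusted p = 0.1445), and passed without αKOγKO replicate 2 (0.77, adjusted p = 0.021) and on the marker scale (0.94, adjusted p = 0.0188). Both synthesis genes stayed far below the transporter in RPKM in all libraries, and the ratio of Gatm to Gamt was 0.405 ± 0.154 (SD, n = 2) in αHetγWT and 0.297 ± 0.143 in αKOγKO, which overlap. The macrophage and fibroblast marker sums were also higher in αKOγKO replicate 1 than in replicate 2, as Gatm was, and their part in it was not tested.

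Ak1, the cytosolic adenylate kinase of muscle, showed the second largest fall of the 9 genes. The gene lies at chr2:32621758-32635058 (plus strand). The core motif printed above is at the third of its 4 starts and at none of the others, and which start these hearts use was not tested. It was at 298 and 299 RPKM for αHetγWT, 287 and 274 for αHetγKO, 238 and 237 for αKOγWT and 69.4 and 90.0 for αKOγKO. No genotype overlapped another, and αKOγKO was separated from the rest by more than the spread of any pair of libraries. The log2 fold change in αKOγKO was -2.03 ± 0.11 against αHetγWT (adjusted p = 2.99e-06), a level 4.09-fold lower, -1.71 ± 0.11 against αKOγWT (adjusted p = 8.09e-06) and -1.93 ± 0.11 against αHetγKO (adjusted p = 4.67e-06). Scaled to the cardiomyocyte markers it was -1.64 against αHetγWT (adjusted p = 9.66e-06).

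Ak3, the GTP:AMP phosphotransferase of the mitochondrial matrix, showed a smaller fall. Its gene lies at chr19:28995053-29048080 (minus strand). Its RPKM was 55.5 and 51.1 for αHetγWT, 56.5 and 57.8 for αHetγKO, 51.8 and 50.9 for αKOγWT and 41.5 and 39.3 for αKOγKO. The αKOγKO libraries lay below the other 6, among which αKOγWT and αHetγWT overlapped. The log2 fold change in αKOγKO was -0.52 ± 0.07 against αHetγWT (adjusted p = 0.00048), -0.48 ± 0.07 against αKOγWT (adjusted p = 0.00103) and -0.61 ± 0.07 against αHetγKO (adjusted p = 0.000232). Scaled to the cardiomyocyte markers the first of these was -0.12 (adjusted p = 0.378), and the others were -0.050 (adjusted p = 0.715) and -0.26 (adjusted p = 0.0753), none of which passed. Per 1000 RPKM of cardiomyocyte markers Ak3 was at 0.930 to 1.19 in the other genotypes and at 1.12 and 0.901 in αKOγKO. The ratio of Ak3 to Ak1 was 0.179 ± 0.011 (SD, n = 2) in αHetγWT, 0.204 ± 0.010 in αHetγKO, 0.216 ± 0.002 in αKOγWT and 0.517 ± 0.113 in αKOγKO.

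Counted over the 9 genes, αKOγKO hearts had 4 genes lower (Ckmt2, Ckm, Ak1 and Ak3) and 2 higher (Slc6a8 and Gamt) than αHetγWT hearts, with 3 that did not pass. Over all 15076 genes tested, 21.5% were lower and 20.7% higher in this comparison, so many genes differed between these hearts. The median log2 fold change of the 9 genes was 0.14, beside 0.01 for all genes. The same 6 genes passed in the same directions against αKOγWT, where 18.2% of all genes were lower and 16.6% higher, and against αHetγKO, where the shares were 19.6% and 18.7%. These comparisons share the αKOγKO libraries and are not independent of each other.

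**Figure D3:**
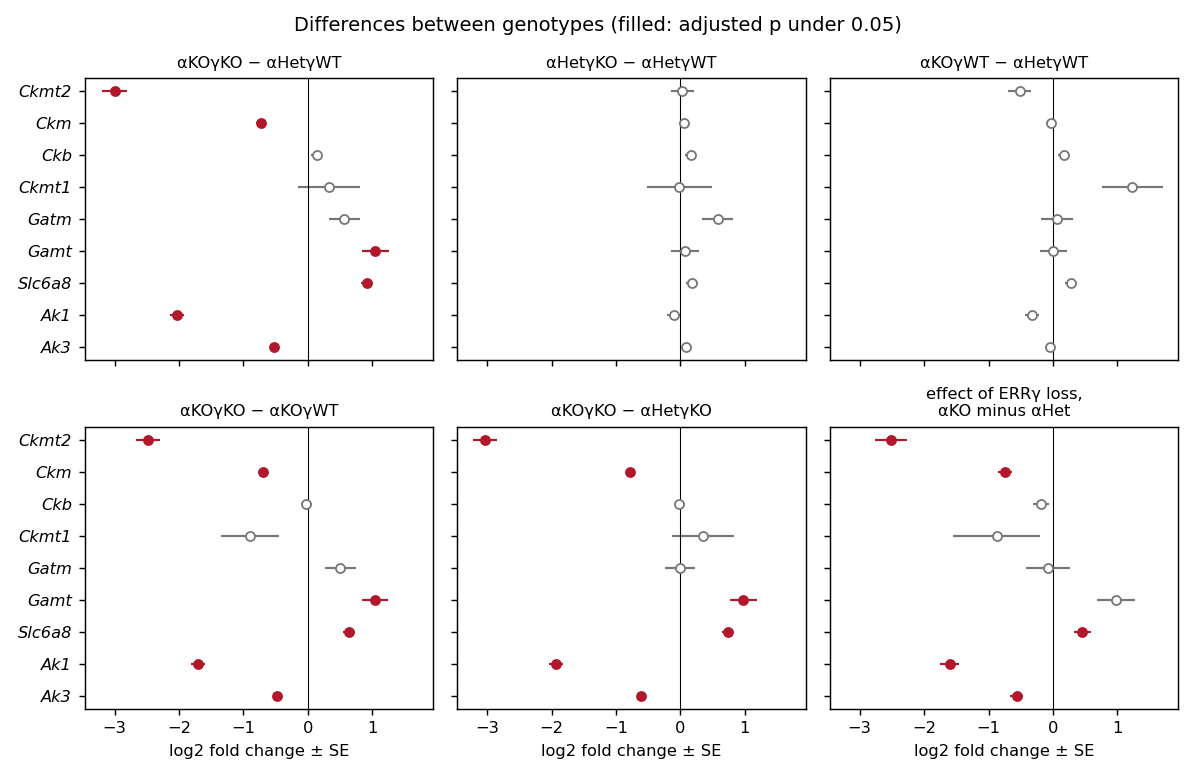
Log2 fold change with its standard error for each of the 9 genes in the 5 comparisons of genotypes and in the interaction (edgeR, 2 libraries per genotype), filled where the adjusted p was under 0.05. The 3 panels of αKOγKO against another genotype show Ckmt2, Ckm, Ak1 and Ak3 to the left and Gamt and Slc6a8 to the right, from -3.03 for Ckmt2 to 1.05 for Gamt, and no point is filled for the loss of ERRα or ERRγ alone.

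The loss of ERRγ alone, αHetγKO against αHetγWT, left 0 of the 9 genes past the threshold, where 0.00663% of all genes passed, 1 of 15076. At an unadjusted p under 0.05 there were 748 of all genes, Gatm among them (log2 fold change 0.57 ± 0.24, edgeR adjusted p = 0.992), and none of the 9 passed with DESeq2, which called 41 genes. The other 8 log2 fold changes lay between -0.10 ± 0.10 for Ak1 and 0.18 ± 0.09 for Slc6a8. The loss of ERRα alone, αKOγWT against αHetγWT, also left 0 of 9 past the threshold by edgeR, where 1.23% of all genes passed and 2181 had an unadjusted p under 0.05. Ckmt2, Ak1, Slc6a8 and Ckmt1 were among those. In edgeR Ckmt2 was at -0.52 ± 0.17 (adjusted p = 0.23), Ak1 at -0.32 ± 0.10 (adjusted p = 0.216), Slc6a8 at 0.28 ± 0.09 (adjusted p = 0.226) and Ckmt1 at 1.23 ± 0.47 (adjusted p = 0.288). Ckmt2 passed with DESeq2 (adjusted p = 0.0208) and with voom and sample weights (adjusted p = 0.0461). Ckmt2 and Ak1 both passed when only these 2 genotypes were fitted in edgeR (adjusted p = 0.0197 and 0.0334). Over all genes these settings called more as well, 422 of 15400, 397 of 15076 and 402 of 14532, beside 186 of 15076 in the first fit. Without αKOγKO replicate 1 the log2 fold changes of Ckmt2 and Ak1 were -0.52 and -0.33, and without αKOγKO replicate 2 they were -0.52 and -0.33. Those αKOγKO libraries belong to neither genotype compared and enter through the shared fit. Ckm was at -0.03 ± 0.07, Ak3 at -0.05 ± 0.07, Gamt at 0.01 ± 0.21, Gatm at 0.07 ± 0.25 and Ckb at 0.16 ± 0.09.

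Whether removing ERRγ changed αKO hearts by another amount than αHet hearts was tested as an interaction, the difference αKOγKO minus αKOγWT less the difference αHetγKO minus αHetγWT. It was below 0 and passed for Ckmt2 (-2.51 ± 0.25, adjusted p = 0.00027), Ak1 (-1.61 ± 0.15, adjusted p = 0.00019), Ckm (-0.75 ± 0.11, adjusted p = 0.00181) and Ak3 (-0.56 ± 0.10, adjusted p = 0.00551), 4 of 9 where 10.7% of all genes were below 0. It was above 0 and passed for Slc6a8 (0.45 ± 0.13, adjusted p = 0.0479), 1 of 9 where 6.77% of all genes were, and this call was lost without 7 of the 8 libraries in turn, with adjusted p from 0.0602 to 0.182. The exception was αKOγKO replicate 2. Gamt had an interaction of 0.97 ± 0.30 (adjusted p = 0.0556), which lay close to the threshold. It passed with upper-quartile factors (adjusted p = 0.0476), by limma run on RPKM (0.0277), without a filter (0.0460), with a mean of at least 5 RPKM (0.0338), with voom and sample weights (0.0483) and without αKOγKO replicate 1 (1.17, adjusted p = 0.0164). With the cardiomyocyte markers as the scale, Ckm (-0.38, adjusted p = 0.0596) and Ak3 (-0.19, adjusted p = 0.374) did not pass, while Gamt did (1.33, adjusted p = 0.00985). Ckb, Ckmt1 and Gatm did not pass (-0.19 ± 0.12, -0.88 ± 0.67 and -0.07 ± 0.34).

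Other genes that carry ATP and its phosphate were taken as whole lists in αKOγKO against αHetγWT. Of 8 genes of ATP export across the mitochondrial membranes, 7 fell and 0 rose, where 21.5% of all genes were lower and 20.7% higher, and the median log2 fold change was -0.86. Among those that fell were Vdac1, a pore of the outer membrane (-1.08 ± 0.07, adjusted p = 6.95e-06), Slc25a3, which brings phosphate into the matrix (-1.19 ± 0.08, adjusted p = 8.53e-06), the ADP/ATP exchanger Slc25a4 (-0.94 ± 0.09, adjusted p = 8.63e-05) and Vdac3 (-0.57 ± 0.06, adjusted p = 0.000136). Scaled to the cardiomyocyte markers, 4 of the 8 fell and the median was -0.46, on a scale that put 7036 of all 15076 genes higher and 1363 lower. Of 7 ATP users known to sit beside creatine kinase, 5 fell and 0 rose (median -0.42), among them Atp2a2, the calcium pump of the sarcoplasmic reticulum (-0.95 ± 0.08), and Myh6, the cardiac myosin heavy chain that is also one of the cardiomyocyte markers (-0.44 ± 0.10). For this list the marker scale gave 2 lower, 1 higher and a median of -0.02.

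The remaining lists held values in both directions, and their counts stand beside the same 20.7% of all genes higher and 21.5% lower. Among the other adenylate kinases, Ak4, a mitochondrial isoform, was at 0.28 ± 0.12 (adjusted p = 0.0879) and Ak7 at 2.63 ± 1.04 (adjusted p = 0.0721), and neither passed. Of 11 other nucleoside mono- and diphosphate kinases 3 rose and 2 fell, near the shares over all genes, with Nme3 at 1.14 ± 0.10, Nme1 at 0.80 ± 0.10, Cmpk2 at -1.11 ± 0.21 and Dtymk at 0.48 ± 0.09. For AMP-activated protein kinase and its activators, 3 of 13 rose and 4 fell, also near those shares, with the β subunits in opposite directions (Prkab2 1.38 ± 0.12, Prkab1 -0.64 ± 0.13), the γ subunit Prkag2 at 1.02 ± 0.16 and Stradb at -0.86 ± 0.10. Of 13 tested genes of AMP deamination and the purine nucleotide cycle, 4 rose and 5 fell, led by Adssl1, the muscle adenylosuccinate synthase (1.55 ± 0.10), Ampd3, an AMP deaminase (-1.92 ± 0.18), Adsl, adenylosuccinate lyase (-0.68 ± 0.08), and Nt5c, a nucleotidase (1.03 ± 0.13). Of 9 genes of the methyl donor cycle that serves Gamt, 1 rose and 4 fell, among them the methionine synthase Mtr (-0.74 ± 0.09) and Mat2b and Mat2a, which make the methyl donor (-0.64 ± 0.08 and -0.55 ± 0.09), and Ahcyl1 (-0.37 ± 0.08). On the marker scale these lists gave 7 higher and 1 lower for the nucleoside kinases, 6 and 1 for AMP-activated protein kinase, 8 and 2 for the purine genes, and 1 and 2 for the methyl donor cycle.

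**Figure D4:**
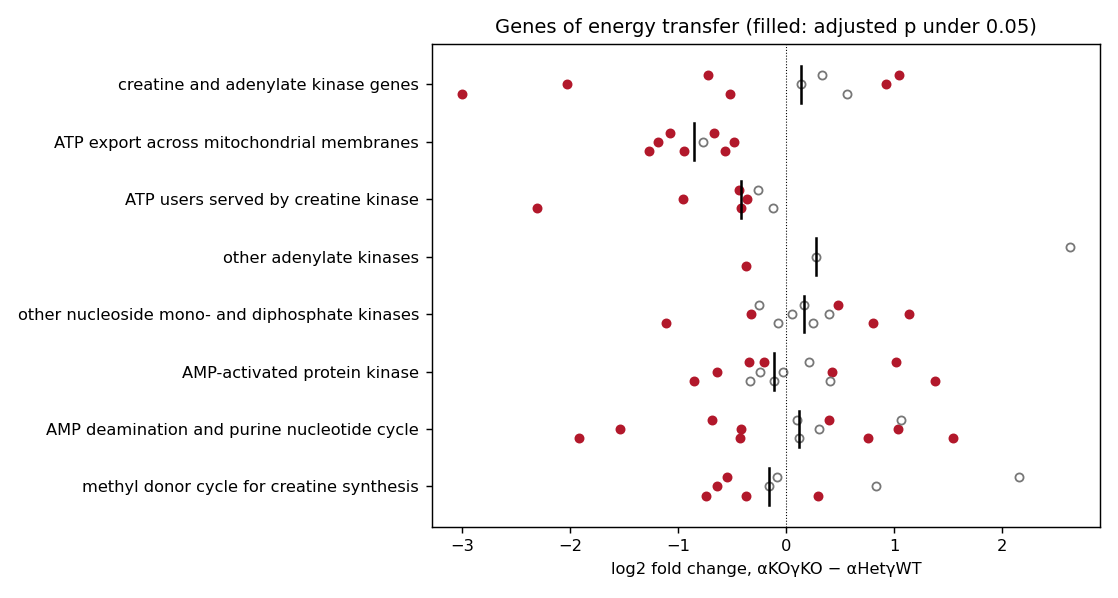
Log2 fold change of each tested gene in αKOγKO over αHetγWT for the 9 genes and 7 lists of energy transfer genes, filled where the adjusted p was under 0.05, with a bar at the median of each list. The ATP export genes all lie to the left of 0 (median -0.86), whereas the 9 creatine and adenylate kinase genes spread from -3.00 to 1.05.

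The genes whose log2 CPM (counts scaled to library depth) ran most alike to each of the 9 over the 8 libraries were taken from 11941 genes with a mean of at least 1 RPKM, as a description: the libraries share their genotype differences, so many genes run alike. Ckmt2 was nearest to Pik3r6 (Pearson r = 0.999), the pyruvate dehydrogenase subunit Pdha1 (r = 0.998) and the muscle cytochrome c oxidase subunit Cox7a1 (r = 0.998). Ckm was nearest to the complex I genes Ndufb10 (r = 0.998) and Ndufa7 (r = 0.997) and to Rhot2 (r = 0.997), which carries mitochondria along microtubules. For Ak1 the nearest were Etfb, an electron carrier of fatty acid oxidation (r = 0.9985), Ppm1k (r = 0.998) and Ankrd40 (r = 0.998), and for Ak3 the mitochondrial ribosomal gene Mrpl13 (r = 0.995), Vars2 (r = 0.995) and Rmdn1 (r = 0.994). Slc6a8 ran with the matrix proteoglycan Vcan (r = 0.996), Pld3 (r = 0.994) and Txndc5 (r = 0.993), and Gamt with Prrc2b (r = 0.985), Washc2 (r = 0.984) and Slc7a4 (r = 0.984). Gatm was nearest to Clec4a1 (r = 0.956), Clec4a3 (r = 0.946) and Lrrc51 (r = 0.930), of which the first pair are lectins of myeloid cells. Ckb was nearest to Tspyl3 (r = 0.973), Mmp28 (r = 0.938) and Mpp1 (r = 0.928), and Ckmt1 to Ppp1r1a (r = 0.979), Rab35 (r = 0.969) and Gfra4 (r = 0.957).

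Reads of overlapping genes could not be told apart, since whether strand was used in counting is not given in the sources used here. In GENCODE M21, an annotated gene on the opposite strand shares 451 of 2913 exonic bases of Ckm, 84 of 1486 of Ckmt2 and 10 of 2496 of Ckmt1. Ak3 shares 430 of 3120 exonic bases with Cdc37l1 and 283 with a noncoding antisense gene. The other 5 genes share no exonic base with another gene there.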

How the data were processed

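Per the labels, total RNA of hearts was made into libraries with an Illumina TruSeq kit and mapped to build mm10 (GRCm38). The aligner, counter and their versions are not given in the sources used here. Per library, the authors deposited 1 table with uniquely assigned read counts, gene length, a coverage score and RPKM. Summed, the deposited counts (whole numbers) equal the header total, and the deposited RPKM is count over length and that total (largest relative deviation 3.4e-14). The deposited coverage score is not defined in the headers, was above 1 in up to 2 genes and was not used. Genes not listed in a table were given 0 reads. Of 18656 gene identifiers, 44 had no symbol in RefSeq.

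Counts were tested with edgeR 4.0.16 (R 4.3.3): 15076 genes passed filterByExpr (at least 10 counts, total of at least 15), TMM scaling was used, and all 8 libraries entered 1 model of 4 genotype means, which left 4 residual degrees of freedom. Quasi-likelihood p-values were adjusted by Benjamini-Hochberg over all genes tested, with a threshold of 0.05. SE is the size of the log2 fold change divided by the square root of F. Alternatives were DESeq2 1.42.0 (size factors, Wald test), upper-quartile scaling, limma 3.58.1 on log2(RPKM + 1) or after voom with sample weights, no low-count filter, a filter at a mean RPKM of 5, the compared genotypes alone, a replicate block and each library left out. Scaling to the summed counts of 10 cardiomyocyte markers was added after seeing the data. The steps were tested on simulated counts. Coordinates, promoters and symbols came from RefSeq (GRCm38.p6) and overlaps from GENCODE M21. Python 3.11.15 and pandas 2.3.3 were used for the rest.

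Named genes were all 9 in every comparison, for each energy list the passing genes of lowest adjusted p (4 at most), and the 3 most alike genes (log2 CPM, prior count 2). Some genes that this rule names are not reported here. The 9 genes and all lists were chosen with earlier results of these data known.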

Additional observations from a re-analysis of the deposited data

Results flagged for a closer look

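For 5 of the 9 genes, removing ERRγ changed αKO hearts by another amount than αHet hearts in edgeR's interaction test, in which 10.7% of all genes were below 0 and 6.77% above 0. The differences on the log2 scale were -2.51 for Ckmt2, -1.61 for Ak1, -0.75 for Ckm, -0.56 for Ak3 and 0.45 for Slc6a8. In αHet hearts the loss of ERRγ gave 0.03 ± 0.17 for Ckmt2, -0.10 ± 0.10 for Ak1, 0.05 ± 0.07 for Ckm, 0.09 ± 0.07 for Ak3 and 0.18 ± 0.09 for Slc6a8 (SE, n = 2 libraries each). In αKO hearts it gave -2.48 ± 0.18 for Ckmt2, -1.71 ± 0.11 for Ak1, -0.70 ± 0.07 for Ckm, -0.48 ± 0.07 for Ak3 and 0.64 ± 0.09 for Slc6a8. The call for Slc6a8 (adjusted p = 0.0479) was lost without 7 of the 8 libraries in turn and with the replicate block (adjusted p = 0.0578). On the scale of the cardiomyocyte markers the interaction was -0.38 for Ckm and -0.19 for Ak3 and neither passed.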

How the results depend on the processing

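Each comparison was refitted in up to 18 ways. The counts of called genes were within 1.5 times their first value, except for αKOγWT against αHetγWT. There 0 of 9 became 1 with DESeq2's Wald test, 1 with voom and sample weights and 2 with only the genotypes compared. Over all genes these settings called 422 of 15400, 397 of 15076 and 402 of 14532, beside 186 of 15076 in the first fit. The count of the 9 genes also changed in some fits that left out 1 library. Replicate numbers do not pair the libraries (correlations of deviations between equal numbers from -0.183 to 0.088). With the replicate block, 4 genes passed the interaction, as Slc6a8 was at 0.46 with an adjusted p of 0.0578, and the block changed no other call of the 9 genes. Values that turned in sign all belonged to genes that did not pass with TMM, and the cause was not tested. On the cardiomyocyte-marker scale these were Ckmt1 in αHetγKO (0.032), Gamt in αKOγWT (-0.0085), Ckb and Gatm in αKOγKO against αHetγKO (0.33, adjusted p = 0.0442, and 0.36), Ckb against αKOγWT (0.40, adjusted p = 0.019), and the interactions of Ckb (0.19) and Gatm (0.31). That scale gave 7036 genes higher and 1363 lower in αKOγKO against αHetγWT, and limma on log2(RPKM + 1) gave 4168 and 2424, beside 3127 and 3237 with TMM. With limma, Ckb was at 0.10 against αKOγWT and 0.082 against αHetγKO, Gatm at 0.059 against αHetγKO and at 0.012 in the interaction. With upper-quartile factors Ckb was at 0.023 and 0.013 and Gatm at 0.028 against αHetγKO, without a filter Gatm was at 0.0023 there, and with a mean of at least 5 RPKM Gamt was at -0.0041 in αKOγWT and Ckb at 0.0058 against αKOγWT.

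Leaving out libraries gave log2 fold changes of αKOγKO against αHetγWT from -0.084 to 0.65 for Ckmt1. In αHetγKO against αHetγWT they were from -0.026 to 0.084 for Ckmt2, -0.14 to 0.10 for Ckmt1 and -0.074 to 0.23 for Gamt. In αKOγWT against αHetγWT they were from -0.10 to 0.035 for Ckm, -0.16 to 0.33 for Gatm, -0.14 to 0.17 for Gamt and -0.10 to 0.0036 for Ak3. For Ckb they were from -0.14 to 0.081 in αKOγKO against αKOγWT and from -0.14 to 0.078 against αHetγKO, and against αHetγKO from -0.063 to 0.67 for Ckmt1 and -0.34 to 0.25 for Gatm, whose interaction was from -0.40 to 0.19. A genotype left with 1 library was assumed to vary like the others. Shares of reads in place of RPKM put Ckm at 56.3% and 56.6% and Ckmt2 at 41.5% and 41.1% in αHetγWT and αHetγKO, and Ckb at 2.79% in αKOγWT, since reads are not divided by length. With 14 to 47 reads, Ckmt1 had the widest errors of the 9 genes.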

Other observations

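In αKOγWT hearts, Mtr and Nme7 of the energy lists passed against αHetγWT although none of the 9 creatine and adenylate kinase genes did, and they are named after their values were seen. Mtr, which makes methionine for the methyl donor used by Gamt, was at -0.75 ± 0.09 on the log2 scale (SE, n = 2 libraries each, edgeR adjusted p = 0.01), close to its value of -0.74 ± 0.09 in αKOγKO. Nme7, a nucleoside diphosphate kinase family member, was at 0.65 ± 0.12 (adjusted p = 0.0414) and at -0.25 ± 0.12 in αKOγKO (adjusted p = 0.128).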
